A study of Mus musculus with 6 samples.

Results

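The Rab GTPases and the TBC domain GAPs were followed at the RNA level in HT22 cells, an immortalised neuronal line of mouse hippocampal origin. Members were taken from the gene table by symbol: 55 genes named Rab with a number and at most 1 letter, and 28 genes named Tbc1d in the same way, 83 of 29493 genes in all. Of these, 75 had counts high enough to be tested, 48 Rab GTPases and 27 GAPs, among 18067 tested genes. The members without a test were Rab3b, Rab6b, Rab20, Rab27a, Rab40b, Rab42, Rab44 and Tbc1d9, each under 1 CPM (counts per 1000000 counts of the scaled library) in all 6 libraries.

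All 6 libraries came from 1 line, HT22-TR/TO-V5Klf13-1, which carries an inducible transgene for KLF13 with a V5 tag. KLF13 belongs to the Krüppel-like factors, which bind DNA through zinc fingers. The first group received 1 µg/ml doxycycline for 8 hours (Dox, 3 libraries), and the second received vehicle for 8 hours (Vehicle, 3 libraries). The series title places the study in the question of how KLF13 acts in hippocampal neurons. Cells lacking the transgene were not among these libraries, so effects of KLF13 and of doxycycline itself cannot be told apart. Separate cultures are not stated for the 3 samples of a group, and p-values therefore reflect only the spread among these samples, which may be technical.

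Rab proteins are small GTPases that mark the membranes of the secretory and endocytic pathways. Each is switched on by a guanine nucleotide exchange factor (GEF), which loads it with GTP, binds effectors that tether, move or fuse vesicles, and is switched off by a GTPase-activating protein (GAP), most of which share the TBC domain. GDP dissociation inhibitors then extract the inactive, prenylated Rab from the membrane for another round. In neurons this cycle serves axon and dendrite growth, synaptic vesicle release and the recycling of receptors.

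Total counts were 41595045 to 48171814 in the Dox libraries and 38566798 to 52930384 in the Vehicle libraries. Klf13, the induced gene, stood at 204.6, 187.7 and 183.6 CPM with Dox, against 37.0, 36.1 and 39.1 CPM with Vehicle (log2 fold change 2.36 ± 0.054, SE). Those reads may come from the transgene, the endogenous gene or both. Of 18 neuronal markers, 11 were in the table, and 7 of these stayed under 1 CPM, among them Map2, Syp and Slc17a7. The summed neuronal markers held 32.2 to 33.7 CPM with Dox and 95.8 to 97.2 CPM with Vehicle, while 8 fibroblast and matrix markers summed to 10045 to 10629 CPM with Dox and 12586 to 13308 CPM with Vehicle. The part of these marker shifts in the Rab results was not tested. In bulk RNA, fewer cells of a kind and less RNA per cell cannot be told apart.

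Both families leaned towards lower RNA levels with Dox, and their members did not move as blocks. Among the 48 tested Rab GTPases, 11 were higher and 24 were lower with Dox, and 13 did not pass the test (edgeR quasi-likelihood test, adjusted p under 0.05 over all tested genes). Among the 27 tested GAPs, 4 were higher, 13 were lower and 10 did not pass. They are called GAPs here by their Tbc1d symbol alone, and GAP activity was not measured. The background in this comparison was large: 25.9% of all tested genes were called higher and 28.8% were called lower. Against that background, the share called higher was 22.9% for the GTPases and 14.8% for the GAPs, and the share called lower was 50% for the GTPases and 48.1% for the GAPs. The 2 families thus had similar shares of lower calls, and no test of the difference between them was made. The 3 Dox and 3 Vehicle libraries did not overlap in CPM for 38 of the 48 GTPases and 21 of the 27 GAPs. The same held for 11559 of the 18067 tested genes, so groups that do not overlap were common in this comparison.

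Counted at 1.5-fold or more, 3 Rab GTPases were higher and 14 were lower, and 1 GAP was higher and 8 were lower. For all tested genes these calls made up 7.32% higher and 14.8% lower. The median log2 fold change was -0.220 over the tested Rab GTPases and -0.173 over the tested GAPs, beside 0.0178 over all tested genes. Among members that share no exons with another gene (at least 50 bases), the medians were 0.0077 for the Rab GTPases and -0.134 for the GAPs, beside 0.0215 over all such genes. With upper-quartile scaling the medians over all tested members were -0.126 for the Rab GTPases and -0.0783 for the GAPs, beside 0.111 over all tested genes. That scaling shifted the calls over all genes to 6246 higher and 4457 lower, beside 4687 higher and 5203 lower as scaled here, and the members' calls became 16 higher and 22 lower for the GTPases and 7 higher and 9 lower for the GAPs.

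**Figure D1:**
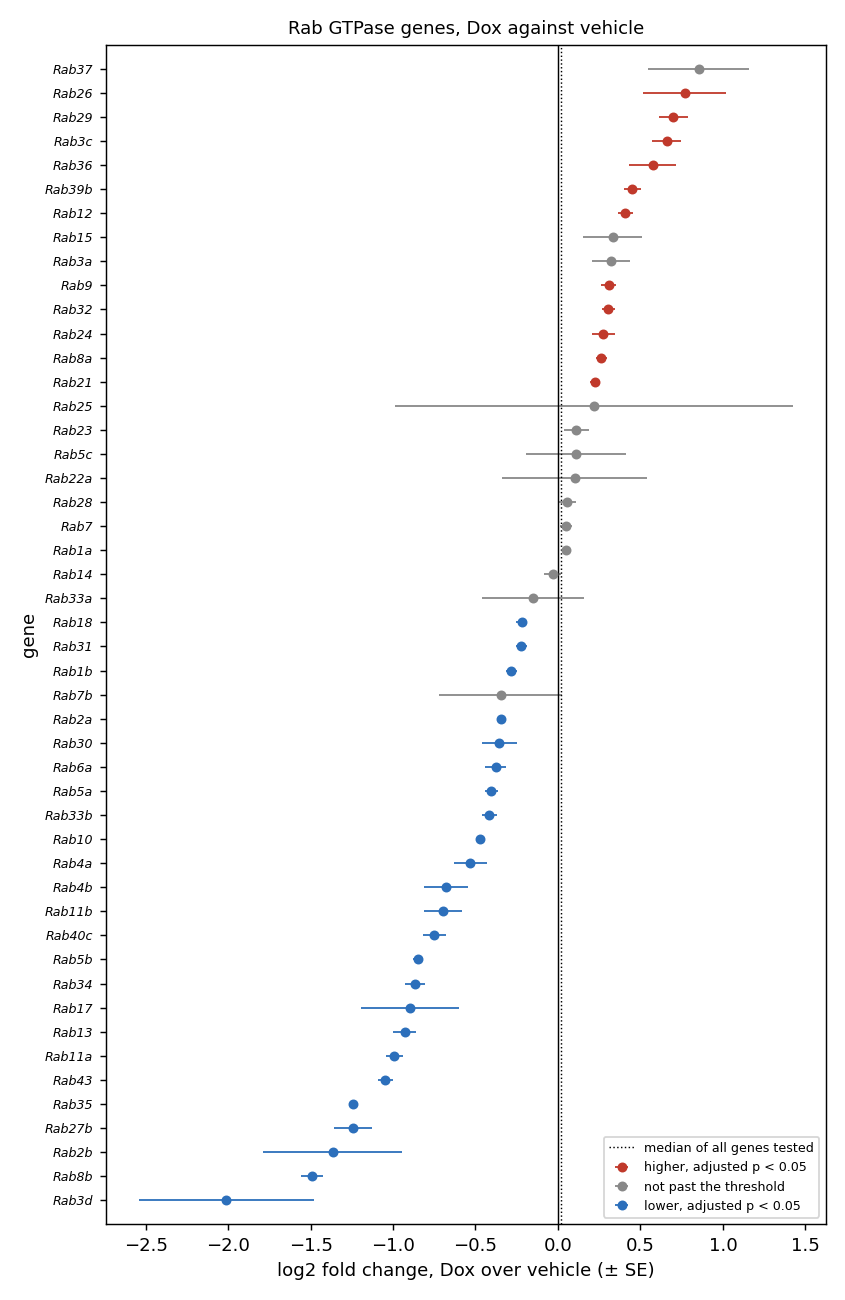
Log2 fold change (Dox over Vehicle) of each of the 48 tested Rab GTPases, ordered by size, with bars of 1 standard error on each side; red marks genes called higher, blue genes called lower and grey genes that did not pass. The values run from -2.01 for Rab3d to 0.85 for Rab37, whose adjusted p of 0.055 missed the threshold, and 24 genes are called lower against 11 called higher.

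The promoters of 4 genes are printed because these genes carry the main contrasts below: Rab8b and Rab35 were lower with Dox, and Rab8a and Rab29 were higher. Krüppel-like factors bind GC boxes and CACCC boxes in DNA, so the windows were searched for GGGCGG and CACCC on both strands. The sequences are RefSeq promoters on GRCm38.p6, from 250 bases before to 50 bases after the annotated start, in the direction of the gene. Capitals mark every match to either motif, in either orientation. Rab8b lies at chr9:66919656-66919955 (minus strand), Rab8a at chr8:72160950-72161249 (plus strand), Rab35 at chr5:115631737-115632036 (plus strand) and Rab29 at chr1:131867027-131867326 (plus strand).
Rab8b: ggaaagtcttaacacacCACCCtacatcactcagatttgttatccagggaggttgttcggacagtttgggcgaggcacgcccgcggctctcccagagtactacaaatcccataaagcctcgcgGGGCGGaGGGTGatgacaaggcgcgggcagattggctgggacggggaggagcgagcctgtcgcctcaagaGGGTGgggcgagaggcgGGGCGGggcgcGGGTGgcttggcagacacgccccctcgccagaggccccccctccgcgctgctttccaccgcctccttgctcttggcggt
Rab8a: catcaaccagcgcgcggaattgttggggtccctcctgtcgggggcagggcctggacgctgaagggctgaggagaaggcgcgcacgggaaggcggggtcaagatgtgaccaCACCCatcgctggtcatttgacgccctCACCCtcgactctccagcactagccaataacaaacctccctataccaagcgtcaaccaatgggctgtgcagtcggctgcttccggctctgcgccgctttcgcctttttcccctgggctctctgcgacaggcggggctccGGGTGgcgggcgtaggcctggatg
Rab35: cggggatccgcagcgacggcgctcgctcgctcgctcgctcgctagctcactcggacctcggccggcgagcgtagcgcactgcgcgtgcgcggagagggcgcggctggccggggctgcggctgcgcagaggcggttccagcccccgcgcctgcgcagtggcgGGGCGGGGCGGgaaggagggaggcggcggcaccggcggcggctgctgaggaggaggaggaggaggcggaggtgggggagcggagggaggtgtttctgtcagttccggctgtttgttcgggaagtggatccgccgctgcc
Rab29: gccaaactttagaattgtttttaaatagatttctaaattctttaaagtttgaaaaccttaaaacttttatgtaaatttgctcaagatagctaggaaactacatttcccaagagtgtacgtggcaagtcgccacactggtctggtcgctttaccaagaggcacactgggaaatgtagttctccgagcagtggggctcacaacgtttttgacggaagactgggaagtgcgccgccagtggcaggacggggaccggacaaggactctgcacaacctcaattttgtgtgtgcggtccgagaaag

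The Rab8b window held 2 matches to GGGCGG and 4 to CACCC, and the Rab8a window held 0 and 3. The Rab35 window held 2 matches to GGGCGG, which share 1 base, and 0 to CACCC, and the Rab29 window held neither motif. Of the 83 members, 67 had a promoter in the RefSeq table, as had 10219 of the 18067 tested genes. At least 1 GGGCGG was found for 75.6% of the Rab GTPases with a promoter (34 of 45) and 72.7% of the GAPs (16 of 22). The share was 66.4% of all tested genes with a promoter and 38.2% of all genes with a promoter, tested or not. CACCC was found for 82.2% of the GTPases and 77.3% of the GAPs, beside 65.9% of all tested genes and 59.8% of all genes with a promoter.

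By direction, GGGCGG stood in the promoters of 4 of 10 members called higher, 24 of 31 called lower and 16 of 19 that did not pass. Over all tested genes the shares were 58% of genes called higher, 80.2% of genes called lower and 60.2% of genes that did not pass. The share was 84.2% among the members that did not pass. CACCC stood in the promoters of 60% of members called higher, 83.9% called lower and 89.5% that did not pass. Its shares over all tested genes were 59% higher, 72.3% lower and 65.7% not past the test. A match is a run of letters and not a binding site, and these data hold no measurement of binding.

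Scaled per length (TPM, transcripts per 1000000, from the length of the longest coding transcript), the most abundant members were Rabs of the endoplasmic reticulum (ER), the Golgi and late endosomes. The order with Dox was Rab1a at 152.7 ± 2.03 TPM, Rab2a at 143.6 ± 2.24, Rab1b at 136.6 ± 1.04 and Rab7 at 128.0 ± 3.91 (mean ± SD, n = 3). With Vehicle, Rab2a led at 182.5 ± 0.738 TPM, followed by Rab1b at 166.1 ± 5.38, Rab1a at 147.8 ± 1.55 and Rab7 at 123.8 ± 2.95. Rab1a, which directs traffic from the ER to the Golgi, therefore ranked first with Dox and below Rab2a and Rab1b with Vehicle, although its own level differed little.

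Summed over all 55 Rab GTPases, transcript levels came to 1568 ± 62.2 TPM with Dox and 1773 ± 29.0 TPM with Vehicle, 11.6% lower with Dox. Summed over all 28 GAPs they came to 442 ± 7.35 TPM with Dox and 485 ± 15.4 TPM with Vehicle, 8.72% lower. In both sums the highest Dox library lay below the lowest Vehicle library. The sums differed by role. The Rabs of recycling and polarised transport summed to 154 ± 0.116 TPM with Dox and 243 ± 4.20 TPM with Vehicle, 36.6% lower. The Rabs of late endosomes and lysosome-related organelles summed to 321 ± 11.9 TPM with Dox and 277 ± 7.38 TPM with Vehicle, 16.0% higher.

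**Figure D2:**
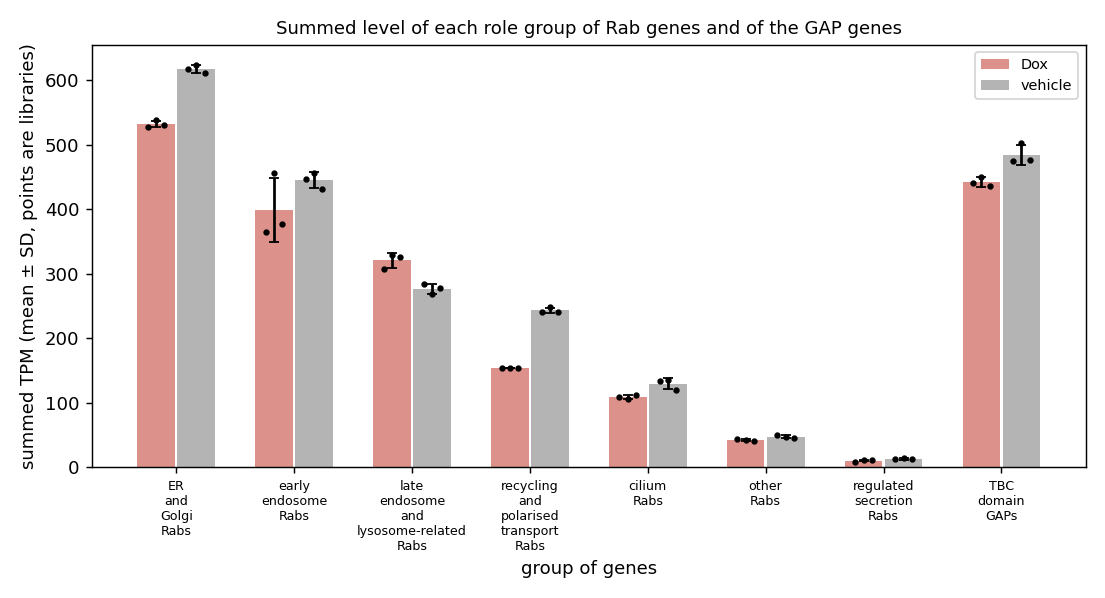
Summed TPM of the Rab GTPases of each role and of the GAPs, Dox left of Vehicle, with points for libraries, bars for means and error bars for 1 SD. Recycling and polarised transport Rabs sit at 154 TPM with Dox and 241 to 248 TPM with Vehicle, and late endosome and lysosome-related Rabs at 307 to 329 TPM with Dox and 269 to 283 TPM with Vehicle.

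The Rabs of recycling and polarised transport had the lowest median log2 fold change of the 7 role groups, -0.80. Of 10 tested, 7 were lower (70%), 1 was higher (10%) and 2 did not pass, beside 28.8% lower and 25.9% higher over all tested genes. Rab35, which serves fast recycling from endosomes and neurite outgrowth, had 38.3, 37.9 and 38.5 CPM with Dox, against 91.9, 89.4 and 89.5 CPM with Vehicle. The 3 libraries of each group lay within a few percent of each other, and the fold change was -1.24 ± 0.027 on the log2 scale (SE; adjusted p = 1.3e-06). Rab35 lies at chr5:115631908-115647736 (GRCm38). It was past the threshold in every alternative setting.

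Rab11a and Rab11b, which run the recycling endosome, were both lower. Rab11a had 25.3, 23.3 and 23.6 CPM with Dox and 49.6, 48.8 and 45.3 CPM with Vehicle (-0.99 ± 0.053, adjusted p = 1.5e-05). Rab11b had 25.6, 24.7 and 23.6 CPM with Dox and 34.7, 47.0 and 38.1 CPM with Vehicle (-0.70 ± 0.11, adjusted p = 0.0021). For each gene all Dox libraries lay below all Vehicle libraries, and Vehicle replicate 2 was the highest for Rab11b. The summed pair held 26.5 ± 1.09 TPM with Dox and 49.9 ± 3.16 TPM with Vehicle. How reads shared with the Rab11b-ps2 pseudogene were assigned is not given in the sources used here, so the Rab11b level is uncertain.

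Rab8a and Rab8b, closely related GTPases of exocytosis and the primary cilium, moved in opposite directions. Rab8b had 9.91, 9.10 and 9.89 CPM with Dox, against 25.1, 27.7 and 28.4 CPM with Vehicle (-1.49 ± 0.067, adjusted p = 7.6e-06). Rab8a had 70.0, 68.6 and 73.0 CPM with Dox, against 58.3, 58.3 and 59.6 CPM with Vehicle (0.26 ± 0.034, adjusted p = 0.00069). The groups did not overlap for either gene. Per length, Rab8b made up 11.6 ± 0.342% of the pair with Dox and 30.7 ± 1.19% with Vehicle, while the summed pair held 32.3 ± 0.795 TPM with Dox and 34.4 ± 1.05 TPM with Vehicle. The pair's total thus differed by 5.87% while its make-up changed.

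**Figure D3:**
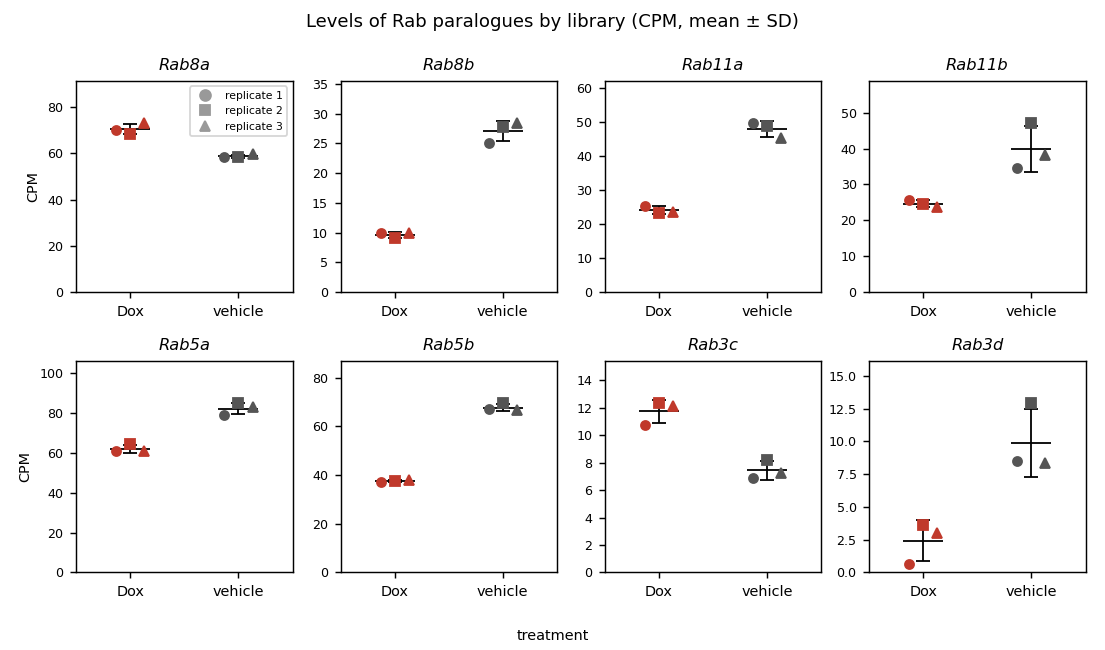
CPM in each library for 8 Rab GTPases of 4 paralogue families, Dox left of Vehicle. Rab8b lies at 9.10 to 9.91 CPM with Dox and 25.1 to 28.4 CPM with Vehicle, while Rab8a lies at 68.6 to 73.0 CPM with Dox and 58.3 to 59.6 CPM with Vehicle.

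Rab10, which drives exocytic carriers such as those of the GLUT4 glucose transporter, had 118.9, 119.2 and 119.1 CPM with Dox and 162.8, 166.8 and 165.1 CPM with Vehicle (-0.47 ± 0.022, adjusted p = 8.5e-06). Its Dox libraries differed by less than 1 CPM. Rab13, which serves cell junctions and neurite growth, had 4.72, 4.64 and 4.99 CPM with Dox and 9.04, 8.5 and 9.76 CPM with Vehicle (-0.93 ± 0.07, adjusted p = 6e-05). Rab17, an epithelial recycling Rab, was called lower (-0.90 ± 0.30, adjusted p = 0.043) at under 1 CPM in all libraries. Rab15 and Rab25 did not pass.

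The Rabs of the ER and the Golgi made up the largest share of the family's transcripts. Of 11 tested, 8 were lower (72.7%), 1 was higher (9.09%) and 2 did not pass, beside 28.8% lower and 25.9% higher over all tested genes. Their sum was 532 ± 5.08 TPM with Dox and 618 ± 6.54 TPM with Vehicle. Rab2a, which acts between the ER and the Golgi, had 164.2, 167.0 and 166.9 CPM with Dox and 213.4, 208.9 and 210.9 CPM with Vehicle (-0.35 ± 0.021, adjusted p = 2.6e-05). Rab1b had 142.9, 139.0 and 143.2 CPM with Dox and 178.9, 171.1 and 167.0 CPM with Vehicle (-0.28 ± 0.032, adjusted p = 0.00042). These abundant Rabs shifted by less than 1.5-fold, and their groups did not overlap.

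Rab1a, the paralogue of Rab1b, had 231.8, 231.2 and 239.0 CPM with Dox and 225.8, 226.3 and 227.6 CPM with Vehicle (0.05 ± 0.022, adjusted p = 0.13). Its difference did not pass the test, though all Dox libraries lay above all Vehicle libraries. It was called higher with upper-quartile scaling (adjusted p = 0.003) and with the 5 CPM filter (0.034). Rab1a made up 52.8% of the summed Rab1 pair with Dox and 47.1% with Vehicle.

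Rab43, which serves the Golgi, had 9.14, 9.10 and 9.48 CPM with Dox and 19.5, 18.6 and 19.1 CPM with Vehicle (-1.05 ± 0.045, adjusted p = 6.8e-06). Its exons share 4164 bases with Gm45140, a gene on the same strand. How reads matching both genes were counted is not given in the sources used here. Rab33b, which acts in the Golgi and in autophagosome formation, was at 19.9 ± 0.694 CPM with Dox and 26.6 ± 0.658 CPM with Vehicle (-0.42 ± 0.045). Rab6a, of retrograde Golgi transport, was at 56.8 ± 4.94 CPM with Dox and 73.7 ± 1.87 CPM with Vehicle (-0.38 ± 0.064). Rab33b shares 661 exonic bases with Gm38160, and Rab6a shares 708 with Mrpl48. Rab18, of the ER and lipid droplets, and Rab30, of the Golgi, fell by 0.22 and 0.35 on the log2 scale. The Rab18 call was lost with an offset for transcript length (-0.05, adjusted p = 0.29).

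Rab39b, a brain-enriched Golgi Rab mutated in inherited parkinsonism, went the other way: it had 32.8, 33.3 and 30.8 CPM with Dox and 22.5, 24.2 and 24.1 CPM with Vehicle (0.45 ± 0.05, adjusted p = 0.00037). All its Dox libraries lay above all its Vehicle libraries. Its exons share 634 bases with the antisense gene Gm15063. Rab33a did not pass, at under 1 CPM.

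Of 9 early endosome Rabs, all tested, 5 were lower (55.6%), 1 was higher (11.1%) and 3 did not pass. The shares over all tested genes were 28.8% lower and 25.9% higher. Rab5 is the master GTPase of early endosomes, and its paralogues differed. Rab5b had 37.3, 37.4 and 38.1 CPM with Dox and 67.0, 69.4 and 66.7 CPM with Vehicle (-0.85 ± 0.031, adjusted p = 3.9e-06). Rab5a had 60.9, 64.5 and 60.9 CPM with Dox and 79.1, 84.8 and 82.8 CPM with Vehicle (-0.41 ± 0.04, adjusted p = 2e-04). Both genes had groups that did not overlap.

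Rab5c had 71.7, 148.0 and 68.6 CPM with Dox and 91.7, 81.1 and 94.4 CPM with Vehicle (0.11 ± 0.30, adjusted p = 0.79). Dox replicate 2 stood above every other library, at about the sum of the other Dox libraries, and the other 2 Dox libraries lay below all Vehicle libraries. Without Dox replicate 2 the log2 fold change was -0.34 (adjusted p = 0.014). Rab22a, which acts between early and recycling endosomes, had 58.3, 59.2 and 60.3 CPM with Dox and 72.6, 72.8 and 20.6 CPM with Vehicle (0.10 ± 0.44, adjusted p = 0.87). Vehicle replicate 3 was the lowest library, and the other Vehicle libraries lay above all Dox libraries. Without it the log2 fold change was -0.30 (adjusted p = 0.0011).

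Rab4a and Rab4b, of fast recycling from early endosomes, were both lower. Rab4a was at 13.5 ± 1.80 CPM with Dox and 19.6 ± 1.11 CPM with Vehicle (-0.53 ± 0.10, adjusted p = 0.0046). Rab4b was at 12.4 ± 1.3 CPM with Dox and 19.8 ± 3.09 CPM with Vehicle (-0.68 ± 0.13, adjusted p = 0.0049), and it shares 1280 exonic bases with Gm21983. Rab31, of traffic between the Golgi and endosomes, fell by 0.22 on the log2 scale. Rab21, which carries integrins, was the only one of the 9 called higher, at 134.9 ± 2.67 CPM with Dox and 115.6 ± 1.66 CPM with Vehicle (0.22 ± 0.026, adjusted p = 0.00048). Rab14 did not pass (-0.03 ± 0.052).

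The Rabs of late endosomes and lysosome-related organelles were the role without a lower call. Of 6 tested, 4 were higher (66.7%) and 2 did not pass, with a median log2 fold change of 0.31. The shares over all tested genes were 25.9% higher and 28.8% lower. Rab12, which sends receptors to lysosomes for degradation, had 89.1, 97.2 and 94.5 CPM with Dox and 73.0, 69.7 and 68.8 CPM with Vehicle (0.41 ± 0.043, adjusted p = 0.00028). Rab32, which serves lysosome-related organelles, had 64.6, 64.5 and 69.3 CPM with Dox and 53.4, 54.5 and 52.6 CPM with Vehicle (0.31 ± 0.039, adjusted p = 0.00067). Rab9, which returns receptors from late endosomes to the Golgi, had 18.3, 19.6 and 18.7 CPM with Dox and 15.5, 15.1 and 15.1 CPM with Vehicle (0.31 ± 0.045, adjusted p = 0.0013). In all 3 genes the lowest Dox library lay above the highest Vehicle library. Groups that did not overlap, in either direction, were found for 11559 of the 18067 tested genes.

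Rab29, which recruits the kinase LRRK2 to membranes, showed the greatest fold of the 4. It had 12.7, 11.6 and 10.9 CPM with Dox and 7.93, 7.11 and 6.65 CPM with Vehicle (0.70 ± 0.089, adjusted p = 0.00067). Its groups did not overlap, and it was past the threshold in every alternative setting. Rab7, the main Rab of late endosomes and lysosomes, had 145.3, 149.2 and 154.9 CPM with Dox and 148.5, 139.4 and 147.0 CPM with Vehicle (0.05 ± 0.037, adjusted p = 0.32), with overlapping groups. With upper-quartile scaling Rab7 was called higher (adjusted p = 0.024). Rab7b had 16.1, 32.9 and 30.5 CPM with Dox and 39.3, 19.2 and 42.4 CPM with Vehicle (-0.35 ± 0.37, adjusted p = 0.47). The Rab7b libraries spread by more than 2-fold within each group.

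**Figure D4:**
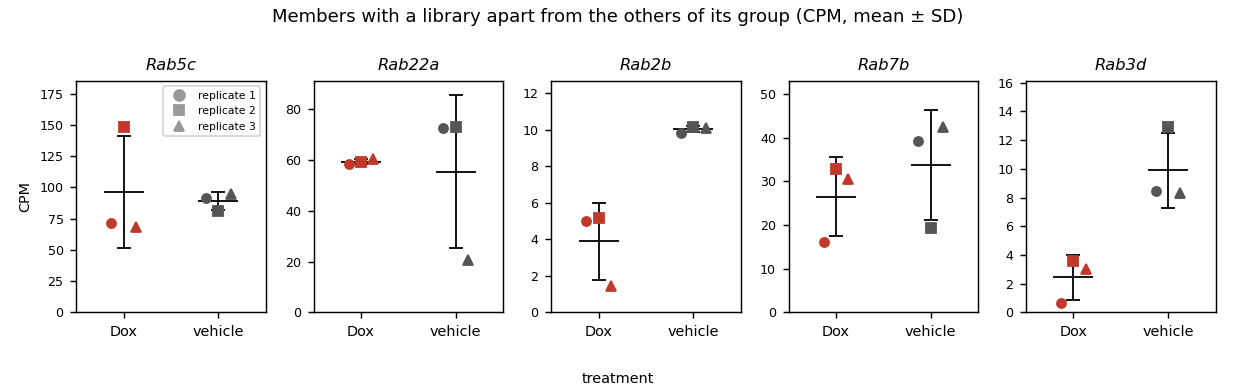
CPM in each library for 5 Rab GTPases in which 1 or more libraries lay over 2-fold from others of their group, Dox left of Vehicle. Rab5c reaches 148 CPM in Dox replicate 2 beside 68.6 and 71.7 CPM in the other Dox libraries, and Rab22a falls to 20.6 CPM in Vehicle replicate 3 beside 72.6 and 72.8 CPM in the other Vehicle libraries.

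Members with a mean of at least 1 CPM that spread over 2-fold within a group were 4 of 69 (5.8%) in the Dox libraries, namely Rab3d, Rab2b, Rab5c and Rab7b, and 2 of 69 (2.9%) in the Vehicle libraries, namely Rab22a and Rab7b. Over all genes at that level the shares were 2.49% with Dox and 2.5% with Vehicle. Rab2b, the paralogue of Rab2a, had 5.03, 5.19 and 1.46 CPM with Dox and 9.83, 10.1 and 10.1 CPM with Vehicle (-1.37 ± 0.42, adjusted p = 0.032). Dox replicate 3 stood far below the other 2. Without it the log2 fold change was -0.97 (adjusted p = 0.00013), and without any 1 Vehicle library the call was lost (adjusted p = 0.070 to 0.077). Rab2b shares exons with Tox4 and Gm43766.

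Of 6 tested Rabs of regulated secretion, 2 were higher (33.3%), 2 were lower (33.3%) and 2 did not pass, all at low levels. These shares were near those of all tested genes, 25.9% higher and 28.8% lower. Rab3d, of secretory granules, had 0.658, 3.61 and 3.03 CPM with Dox and 8.48, 12.9 and 8.31 CPM with Vehicle (-2.01 ± 0.53, adjusted p = 0.018). Dox replicate 1 was far below the other Dox libraries, and all Dox libraries lay below all Vehicle libraries. Without Vehicle replicate 2 the call was lost (adjusted p = 0.058). Rab27b, which docks granules and exosome-bearing endosomes at the plasma membrane, had 3.78, 5.11 and 4.26 CPM with Dox and 10.2, 9.85 and 11.0 CPM with Vehicle (-1.24 ± 0.12, adjusted p = 0.00016).

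Rab3c, of synaptic vesicles, had 10.8, 12.3 and 12.1 CPM with Dox and 6.89, 8.16 and 7.23 CPM with Vehicle (0.66 ± 0.087, adjusted p = 8e-04). Its groups did not overlap. Rab3a, the main Rab3 of synapses, had 2.96, 3.34 and 3.83 CPM with Dox and 2.57, 2.93 and 2.60 CPM with Vehicle (0.32 ± 0.11, adjusted p = 0.053), and did not pass. Per length, Rab3d made up 14.1 ± 8.06% of the summed Rab3 genes with Dox and 48.7 ± 4.45% with Vehicle. Rab26, of secretory granules, was called higher at under 1 CPM (0.77 ± 0.25, adjusted p = 0.04), and Rab37 missed the threshold (0.85 ± 0.31, adjusted p = 0.055).

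Of 3 cilium Rabs, 1 was lower (33.3%) and 2 did not pass. The share called lower was near the 28.8% over all tested genes, of which 25.9% were higher. The lower one was Rab34, which acts in the assembly of the primary cilium. It had 27.2, 25.4 and 28.5 CPM with Dox and 52.1, 49.3 and 46.6 CPM with Vehicle (-0.87 ± 0.062, adjusted p = 4.7e-05). Rab23, a regulator of Hedgehog signalling, was at 40.9 ± 3.89 CPM with Dox and 37.9 ± 1.81 CPM with Vehicle, and Rab28 at 56.8 ± 0.507 CPM with Dox and 54.7 ± 4.02 CPM with Vehicle. Neither passed, and their groups overlapped.

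Of the remaining Rabs, Rab40c, which joins a ubiquitin ligase through its SOCS box, was at 19.8 ± 0.718 CPM with Dox and 33.3 ± 2.71 CPM with Vehicle (-0.75 ± 0.069, adjusted p = 0.00015). Rab36 was at 2.47 ± 0.241 CPM with Dox and 1.66 ± 0.278 CPM with Vehicle (0.57 ± 0.14, adjusted p = 0.014). Rab24, which takes part in autophagy, was at 16.2 ± 0.973 CPM with Dox and 13.4 ± 0.853 CPM with Vehicle (0.28 ± 0.07, adjusted p = 0.015), and shares 1258 exonic bases with Prelid1.

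Of the 13 lower GAPs, 6 were lower by 1.99-fold to 2.42-fold, and most of the others shifted little. Tbc1d1, which regulates GLUT4 vesicles in muscle, had 22.8, 22.5 and 23.0 CPM with Dox and 53.0, 56.5 and 54.2 CPM with Vehicle (-1.26 ± 0.038, adjusted p = 2.3e-06). It lies at chr5:64156305-64351486 (GRCm38). Tbc1d4, its paralogue and also a GLUT4 regulator, had 28.2, 31.0 and 28.4 CPM with Dox and 28.7, 34.0 and 32.1 CPM with Vehicle (-0.11 ± 0.074, adjusted p = 0.24). The groups did not overlap for Tbc1d1 and overlapped for Tbc1d4. The difference between the paralogues' shifts was not tested.

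Tbc1d2b had 17.3, 17.9 and 17.7 CPM with Dox and 40.7, 45.3 and 42.1 CPM with Vehicle (-1.27 ± 0.051, adjusted p = 5.3e-06), while its paralogue Tbc1d2 had 20.1, 17.2 and 17.6 CPM with Dox and 21.3, 21.97 and 20.1 CPM with Vehicle (-0.21 ± 0.074, adjusted p = 0.052). Tbc1d2 did not pass. Tbc1d24, a TBC protein of synapses mutated in inherited epilepsy, had 11.95, 12.7 and 10.8 CPM with Dox and 22.7, 30.4 and 22.4 CPM with Vehicle (-1.09 ± 0.14, adjusted p = 0.00062). Vehicle replicate 2 was the highest library, and the groups did not overlap.

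Tbc1d13, Tbc1d12 and Tbc1d25 completed the 6. Tbc1d13 had 12.2, 13.0 and 12.7 CPM with Dox and 28.9, 27.5 and 26.0 CPM with Vehicle (-1.12 ± 0.056, adjusted p = 1.2e-05). Tbc1d12, which binds Rab11, had 13.4, 13.9 and 12.7 CPM with Dox and 26.0, 28.2 and 27.8 CPM with Vehicle (-1.04 ± 0.056, adjusted p = 1.5e-05). Tbc1d25, a GAP of autophagy, had 4.39, 4.66 and 4.23 CPM with Dox and 8.72, 8.84 and 8.87 CPM with Vehicle (-0.99 ± 0.056, adjusted p = 1.8e-05). In each of the 3 genes the groups stood far apart beside their spread.

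**Figure D5:**
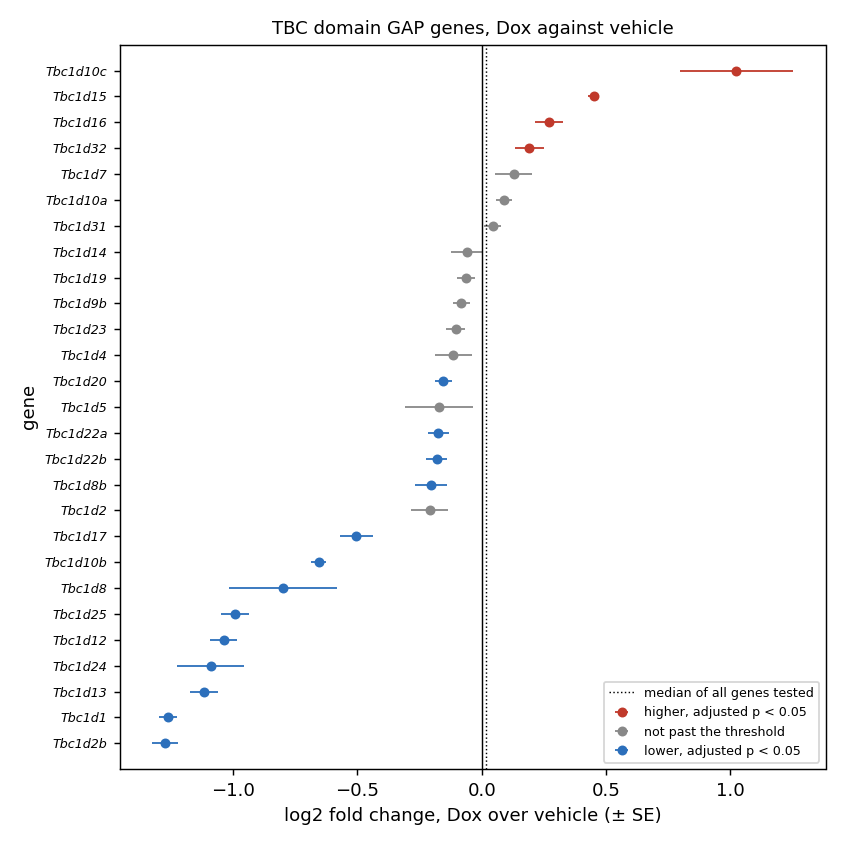
Log2 fold change (Dox over Vehicle) of each of the 27 tested TBC domain GAPs, with bars of 1 standard error on each side. The values run from -1.27 for Tbc1d2b to 1.02 for Tbc1d10c, with 13 genes called lower and 4 called higher.

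The other lower GAPs were Tbc1d8 (-0.80 ± 0.22), Tbc1d10b (-0.66 ± 0.031), Tbc1d17 (-0.50 ± 0.066), Tbc1d8b (-0.20 ± 0.064), Tbc1d22a (-0.17 ± 0.043), Tbc1d22b (-0.18 ± 0.042) and Tbc1d20 (-0.15 ± 0.033), on the log2 scale. Tbc1d17 shares 3423 exonic bases with Il4i1, and Tbc1d8 shares 420 with Rpl31. The calls of Tbc1d8b (adjusted p = 0.16), Tbc1d20 (0.16), Tbc1d22a (0.15) and Tbc1d22b (0.10) were lost with upper-quartile scaling.

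Tbc1d15, which acts on Rab7 at lysosomes and mitochondria, was the most abundant GAP per length and went up. It had 137.7, 138.9 and 137.8 CPM with Dox and 100.9, 102.1 and 100.1 CPM with Vehicle (0.45 ± 0.022, adjusted p = 1.1e-05), with SDs under 1 CPM in each group. It lies at chr10:115197872-115251467 (GRCm38) and held 67.9 ± 0.964 TPM with Dox and 49.7 ± 0.941 TPM with Vehicle. Tbc1d16, which acts on Rab4, had 69.2, 72.3 and 71.0 CPM with Dox and 54.4, 63.2 and 58.6 CPM with Vehicle (0.27 ± 0.057, adjusted p = 0.007). Tbc1d32, a ciliary protein of Hedgehog signalling, was higher by 0.19 on the log2 scale (adjusted p = 0.031).

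Tbc1d10c, a GAP best known from lymphocytes, had 0.799, 0.790 and 0.516 CPM with Dox and 0.318, 0.384 and 0.328 CPM with Vehicle (1.02 ± 0.23, adjusted p = 0.0089). It stayed under 1 CPM in every library, and DESeq2 did not call it (adjusted p = 0.061). Tbc1d10c shares 1286 exonic bases with AC109138.8. Tbc1d7, a subunit of the TSC complex that restrains mTORC1, had 8.69, 9.67 and 8.25 CPM with Dox and 8.43, 7.83 and 8.10 CPM with Vehicle (0.13 ± 0.073, adjusted p = 0.19). Its groups overlapped, and upper-quartile scaling called it higher (adjusted p = 0.037). Tbc1d5, Tbc1d9b, Tbc1d10a, Tbc1d14, Tbc1d19, Tbc1d23 and Tbc1d31 also did not pass.

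GAPs and the Rabs they are known to act on, from work on human and mouse proteins, were set side by side. Rab10 was at 119.1 ± 0.172 CPM with Dox and 164.9 ± 1.99 CPM with Vehicle, and of its GAPs Tbc1d1 was lower and Tbc1d4 did not pass. For Rab35, 2.36-fold lower, the GAPs Tbc1d13 (2.17-fold) and Tbc1d10b (1.57-fold) were lower too, and Tbc1d10a did not pass (0.09 ± 0.032, adjusted p = 0.055). Rab27a, the other Rab paired with Tbc1d10a, had too few counts for a test. Rab35 was thus lower with 2 of the 3 GAPs paired with it here, and Rab10 with 1 of 2. Beside these counts, 48.1% of all tested GAPs and 28.8% of all tested genes were called lower. Whether GAPs and their Rabs shifted together was not tested. The pairs are not a full list of the GAPs of each Rab. Tbc1d10c, called higher, was not among them.

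Rab7 did not pass, and of its GAPs Tbc1d15 was higher while Tbc1d2 and Tbc1d5 (-0.17 ± 0.14, adjusted p = 0.33) did not pass. Tbc1d20 was lower, at 80.9 ± 2.51 CPM with Dox and 90.0 ± 1.85 CPM with Vehicle (-0.15 ± 0.033, adjusted p = 0.0079), while of its substrates Rab1b was lower and Rab1a did not pass. Tbc1d25 and its substrate Rab33b were both lower, with log2 fold changes of -0.99 and -0.42. Tbc1d16 was higher where its substrate Rab4a was lower, with log2 fold changes of 0.27 and -0.53. Tbc1d30, a GAP of Rab8a, is not analysed here.

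A part of the members share exons with a neighbouring gene, and the strand setting of the counting is not given in the sources used here. Of the 48 tested Rab GTPases, 16 share at least 50 exonic bases with another gene, and of these 11 were lower (68.8%) and 3 were higher (18.8%), with a median log2 fold change of -0.41. Over all tested genes with such overlap 29.9% were lower and 26.4% were higher. Among the 32 without such overlap 13 were lower (40.6%) and 8 were higher (25.0%), with a median of 0.01. Over all tested genes without overlap 29.3% were lower and 26.3% were higher. Of the 18 GAPs without overlap, 8 were lower and 2 were higher, with a median of -0.13. Rab35, Rab8b, Rab5b, Rab2a, Rab34, Tbc1d1 and Tbc1d13 have no overlap and were lower, and Rab8a, Rab12, Rab29, Rab32 and Tbc1d15 have none and were higher.

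Some calls were lost when 1 library was left out, with their direction kept. Rab17 was lost (adjusted p up to 0.15) and Rab26 was lost (up to 0.13) when any library but Vehicle replicate 1 was left out; over the 6 fits the log2 fold change was -1.07 to -0.72 for Rab17 and 0.55 to 0.93 for Rab26. Rab30 was lost (up to 0.093) without Dox replicate 1 or 2 or Vehicle replicate 2 or 3, at -0.42 to -0.25 over the 6 fits. Rab24 was lost (0.05) without Dox replicate 1, at 0.22 to 0.31. Among the GAPs, Tbc1d8 was lost (up to 0.065) without Dox replicate 2 or Vehicle replicate 1 or 2, at -1.07 to -0.62. Tbc1d8b was lost (up to 0.097) without Dox replicate 1 or 3 or Vehicle replicate 2 or 3, at -0.26 to -0.15. Tbc1d32 was lost (up to 0.088) without Dox replicate 1 or 2 or Vehicle replicate 1 or 3, at 0.15 to 0.24. Tbc1d22a was lost (0.056) without Dox replicate 1, at -0.20 to -0.14.

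Other members without a call passed when 1 library was left out. Without Dox replicate 1, Rab3a was called higher (adjusted p = 0.024), and Tbc1d2 (0.011) and Tbc1d9b (0.047) were called lower. Rab23 was called higher without Dox replicate 2 (0.034), and Rab37 without Vehicle replicate 1 (0.025). In contrast, Rab35, Rab8b, Rab8a, Rab10, Rab11a, Rab29, Tbc1d1 and Tbc1d15 stayed past the threshold with each library left out.

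The other proteins of the Rab cycle were counted from lists. Of 37 tested Rab GEFs, 6 were higher (16.2%), 20 were lower (54.1%) and 11 did not pass, with a median log2 fold change of -0.20. The shares over all tested genes were 25.9% higher and 28.8% lower, with a median of 0.0178. Sbf2, a DENN domain protein, was at 30.9 ± 0.364 CPM with Dox and 84.3 ± 4.45 CPM with Vehicle (-1.45 ± 0.045, adjusted p = 2.4e-06). Dennd5a, also of the DENN family, was at 71.8 ± 1.62 CPM with Dox and 121.5 ± 4.72 CPM with Vehicle (-0.76 ± 0.037). Dennd2c, of the same family, fell by 0.79 on the log2 scale.

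Of 10 prenylation and recycling factors, 2 were higher (20%), 4 were lower (40%) and 4 did not pass. The shares over all tested genes were 25.9% higher and 28.8% lower. Gdi2, a widely expressed GDP dissociation inhibitor, had 188.2, 190.7 and 204.2 CPM with Dox and 244.7, 246.4 and 243.2 CPM with Vehicle (-0.33 ± 0.035, adjusted p = 0.00027). It was lower, with groups that did not overlap, and it shares exons with Fam208b. Arl6ip5, a PRA1 family protein that binds prenylated Rabs, was at 201.8 ± 2.25 CPM with Dox and 146.4 ± 2.15 CPM with Vehicle (0.46 ± 0.023).

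Of 12 Rab GAPs that do not carry a Tbc1d number, 3 were higher (25%), 7 were lower (58.3%) and 2 did not pass. The share called higher was close to the 25.9% over all tested genes, of which 28.8% were lower. Evi5l, a TBC domain GAP, had 1.93, 2.01 and 2.08 CPM with Dox and 17.8, 21.3 and 18.6 CPM with Vehicle (-3.26 ± 0.088, adjusted p = 1.8e-06), a greater fold than any Tbc1d gene, and it shares exons with Prr36 and 4932443L11Rik. Sgsm2 was at 5.78 ± 0.264 CPM with Dox and 23.2 ± 0.766 CPM with Vehicle (-2.01 ± 0.056), and Rabgap1l fell by 1.16 on the log2 scale.

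Of 38 tested Rab effectors, 10 were higher (26.3%), 22 were lower (57.9%) and 6 did not pass, with a median of -0.51. The share called higher was close to the 25.9% over all tested genes, and the share called lower was above their 28.8%. Exoc6b, an exocyst subunit that binds Rab11, was at 18.0 ± 0.359 CPM with Dox and 52.3 ± 0.947 CPM with Vehicle (-1.54 ± 0.036, adjusted p = 1.5e-06). Micall2, an effector of Rab13, was at 16.8 ± 0.352 CPM with Dox and 44.8 ± 0.887 CPM with Vehicle (-1.41 ± 0.038, adjusted p = 1.7e-06). Ehbp1l1, an effector of Rab8, was at 91.2 ± 2.24 CPM with Dox and 179.9 ± 4.36 CPM with Vehicle (-0.98 ± 0.031, adjusted p = 2.6e-06). Of 5 tested Rab-like GTPases 3 were higher (60%) and 2 did not pass. The higher ones were Ift22 (0.96 ± 0.11), Rabl2 (0.56 ± 0.061) and Ift27 (0.18 ± 0.045), which serve intraflagellar transport.

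In the authors' deposited table of the same comparison, called at an adjusted p under 0.01, 8 Rab GTPases were higher and 22 were lower, and 2 GAPs were higher and 10 were lower. Over all genes with an adjusted p in the authors' deposited table, 17.9% were called higher and 22.4% lower. The authors' deposited table gave every tested member the direction found here. The 10 members called here and not there were Rab17, Rab24, Rab26, Rab30, Rab36, Tbc1d8b, Tbc1d10c, Tbc1d22a, Tbc1d22b and Tbc1d32. The thresholds differ, 0.05 here and 0.01 there. In the authors' deposited table Rab24, Rab36, Tbc1d8b, Tbc1d22a, Tbc1d22b and Tbc1d32 had adjusted p of 0.015 to 0.042, and the others 0.058 to 0.28.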

How the data were processed

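RNA was measured in 3 Dox and 3 Vehicle libraries of 1 HT22 line. TRIzol was used to extract total RNA, per the labels' protocols. The build GRCm38 and the tools HISAT2 2.1.0, StringTie 1.3.3, FastQC 0.11.3 and DESeq2 are named in the submitters' processing notes, with no role for each. How strand and multiply matching reads were handled, and with which annotation, is not given in the sources used here. As deposited, the count table holds whole numbers per gene with no normalization by the authors, and 0 of its rows name no gene. Their second table, per the file headers, gives each gene's normalized mean (a signal), log2 fold change and error, test statistic (a score) and p-value, raw and adjusted.

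From the counts, filterByExpr kept 18067 of 29493 genes, TMM scaled the libraries (CPM on effective library size), and edgeR 4.0.16 (limma 3.58.1, R 4.3.3) compared Dox with Vehicle by its quasi-likelihood test over all tested genes, with no covariate and Benjamini-Hochberg adjustment at 0.05. Each SE was taken as the absolute log2 change divided by the root of its F statistic. TPM used the longest coding transcript of GENCODE M21 (GRCm38), which may differ from the authors' annotation; all 83 members matched it. The common biological coefficient of variation was 12%. An exact permutation test of 3 against 3 libraries gives p = 0.1 at the lowest, and was not done. The code was tested on simulated data.

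The members and lists were chosen with earlier results of these data known. Named genes were Klf13, the largest rises (8) and falls (8) among Rab GTPases and up to 6 of the largest rises and 6 of the largest falls among GAPs past the test with groups that do not overlap, fixed examples and GAP and Rab pairs, and up to 3 genes per pathway list; other names were chosen after their values were seen. One gene of the pathway lists is not reported here. Same-numbered libraries' deviations correlated at 0.069, 0.052 and -0.094 over 14635 genes, and no pairing was assumed. Replicates differed by more than sampling noise. The other settings were upper-quartile scaling, size factors of DESeq2, the Wald test of DESeq2 1.42.0, limma-voom, no filter, a mean of at least 5 CPM, a replicate block, an adjusted p under 0.01, a length offset and leaving out each library. Leaving out genes with 50 or more shared exonic bases was chosen after seeing the data.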

Additional observations from a re-analysis of the deposited data

How the results depend on the processing

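The counts of members called kept within 1.5 times of the reported ones under DESeq2 size factors, the DESeq2 Wald test, limma-voom, no filter, the 5 CPM filter, the length offset and an adjusted p under 0.01. Under upper-quartile scaling 7 GAPs were higher, and the medians were -0.126 for the Rab GTPases and -0.0783 for the GAPs. The Rab median was -0.327 with the 5 CPM filter, and with the length offset the medians were -0.149 (Rab GTPases) and -0.0785 (GAPs). Among members with no exonic overlap, 13 Rab GTPases were lower, 2 GAPs were higher and 8 lower, with medians of 0.0077 (reversed) and -0.134; fewer genes are counted there, and the cause of the reversed median was not tested. With the replicate block 11 Rab GTPases were higher and 23 lower, 4 GAPs were higher and 13 lower, and 9699 genes were called in all; the block ended 1 call, that of Rab17 (adjusted p = 0.095). Leaving out 1 library gave 10 to 12 Rab GTPases higher and 21 to 24 lower, 3 to 4 GAPs higher and 11 to 13 lower, medians of -0.344 to -0.190 (Rab GTPases) and -0.180 to -0.140 (GAPs), and 8987 to 9330 genes called in all. The Rab median of -0.344 came without Dox replicate 2. Leaving out 1 library gave -0.344 to 0.306 for Rab5c, reversed without Dox replicate 2, and -0.296 to 0.351 for Rab22a, reversed without Vehicle replicate 3. Of the members called, 27 of 35 Rab GTPases and 10 of 17 GAPs were past the threshold in every setting that gave them a value. The matching share over all called genes is not given here. Small shifts such as that of Rab1a (0.05) passed or missed the threshold with the scaling and the filter.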

Other observations

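Several rows that stand beside members by name or position fell outside the family. Rab26os, an antisense gene that lies within the Rab26 gene on the opposite strand, had 42.3, 40.1 and 40.2 CPM with Dox and 28.2, 24.1 and 30.9 CPM with Vehicle (0.56 ± 0.091 on the log2 scale, SE; adjusted p = 0.0022), while Rab26 itself stayed under 1 CPM. Rab26os shares 78 exonic bases with Snord60 on its own strand, and how reads matching both were counted is not given in the sources used here. Rab10os, which shares 143 exonic bases with Rab10, was higher with Dox (0.23 ± 0.049, adjusted p = 0.0079) where Rab10 was lower. The pseudogene Rab11b-ps2 had 8.41, 7.58 and 8.08 CPM with Dox and 12.5, 13.1 and 12.8 CPM with Vehicle (-0.67 ± 0.056), lower as Rab11b was. These 3 were chosen after their values were seen.

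Some effectors outside the rule for named genes were also looked at after their values were seen. Eea1, the tether that Rab5 recruits to early endosomes, was at 58.8 ± 3.21 CPM with Dox and 132.4 ± 9.74 CPM with Vehicle (-1.17 ± 0.066, adjusted p = 1.8e-05). Rabep1, another Rab5 effector, was at 38.1 ± 8.04 CPM with Dox and 97.3 ± 3.63 CPM with Vehicle (-1.35 ± 0.15, adjusted p = 0.00036). Rbsn, also one of these, was at 81.7 ± 1.16 CPM with Dox and 63.1 ± 2.21 CPM with Vehicle (0.37 ± 0.034, adjusted p = 0.00015). Eea1, Rabep1 and Rbsn thus did not share a direction, and the effectors of Rab5 were not counted as a set. The paralogues Rilpl1 and Rilpl2, which bind Rabs phosphorylated by LRRK2, also parted: Rilpl1 was at 3.07 ± 0.288 CPM with Dox and 6.86 ± 0.267 CPM with Vehicle (-1.16 ± 0.082), and Rilpl2 at 47.1 ± 1.10 CPM with Dox and 21.1 ± 1.69 CPM with Vehicle (1.16 ± 0.063).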
